A study of Rattus norvegicus with 4 samples.

Results

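The genes described here encode the receptors by which cells of the rat anterior pituitary can respond to neurotransmitters: the channels and G protein-coupled receptors for GABA and glutamate, the nicotinic and muscarinic acetylcholine receptors, the adrenergic and serotonin receptors, and the P2X and P2Y receptors for ATP and related nucleotides. They were chosen by symbol among the 30058 rows of the count table (symbols that begin with *Gabr*, *Gabbr*, *Gria*, *Grid*, *Grik*, *Grin*, *Grm*, *Chrn*, *Chrm*, *Adra*, *Adrb*, *Htr*, *P2rx* or *P2ry*) and kept where at least 1 UMI was found in 10 or more cells. A UMI is a molecular tag that counts 1 captured RNA molecule. Of 108 matching rows, 79 were kept, 29 were found in fewer cells, and 9 of these had no UMI at all. The choice used neither cell type nor sex. The 79 members comprise 15 GABA-A and 2 GABA-B genes, 7 AMPA and delta, 5 kainate, 5 NMDA and 4 metabotropic glutamate receptor genes, 10 nicotinic and 4 muscarinic genes, 3 alpha- and 2 beta-adrenergic genes, 8 serotonin receptor genes, and 6 P2X and 8 P2Y genes. One of them encodes a protein that binds a receptor and is not itself a receptor.

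Anterior pituitaries of untreated Sprague Dawley rats were dispersed and profiled by droplet-based single-cell RNA sequencing of 3′ ends. The females were 44 days old and in diestrus, the males were 59 days old, and neither group carried a modified allele or received an agent according to the labels. For each sex, 4 pituitaries were pooled and the pool was loaded on 2 lanes, so that lanes 1 and 2 (female) and lanes 3 and 4 (male) were technical replicates of 1 pool each. A difference between the sexes therefore cannot be told apart from a difference between pools or ages, and p-values measure only the spread between lanes or between the 2 pools.

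The 4 lanes held 18955509 to 24048021 UMIs. Of 7861 cells, 6848 were kept and typed by marker genes as 793 corticotrophs (C), 238 gonadotrophs (G), 88 thyrotrophs (T), 1889 somatotrophs (S), 486 lactotrophs (L), 2313 folliculostellate cells (FSC), 548 leukocytes (Le), 132 endothelial cells (EC) and 361 erythrocytes (E). C, G, T, S and L are hormone-producing cells (HPC). The male-specific *Eif2s3y* had 0 and 1 UMIs in the female lanes and 1716 and 1693 in the male lanes. *Ddx3y*, also on the Y chromosome, did not separate the sexes, with 8 and 8 UMIs in the female and 8 and 14 in the male lanes. The 4 HPC markers summed to 7709 CPM or more in every lane of the 5 HPC types. In any lane of the other types they summed to at most 354.5 CPM. Cells were typed by these same markers, so this difference follows from the typing and is no separate check of the tissue. A level is given as CPM, the UMIs of a gene per 1e+06 UMIs of a cell type or of that type in 1 lane. It counts 3′ ends and is not divided by transcript length, so a level is compared between cell types or sexes for the same gene or family, not between genes. As a background level, 1.94% of the 361 E (median 8246 UMIs), which should lack these genes, held a UMI of any member. Globins took 65.6% of their UMIs, which left a median of 2751 UMIs per cell.

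GABA opens chloride channels of the GABA-A type, assembled from subunits of several classes, and acts through the GABA-B pair of G protein-coupled subunits. Ionotropic glutamate receptors, nicotinic receptors, the serotonin receptor encoded by *Htr3a* and P2X receptors are cation channels, while metabotropic glutamate, muscarinic, adrenergic, most serotonin and P2Y receptors signal through G proteins. Pituitary hormone cells are electrically excitable and release hormone with calcium influx, and transmitters from the hypothalamus, from nerve fibres and from neighbouring cells are known to modulate them.

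Summed over all 79 members, receptor transcripts were found in each of the 8 types compared, at levels that differed between them, and were at 2.22 CPM in E (6.50 CPM with hormones and globins left out of the totals). Their summed level was 523 CPM in C, 492 CPM in Le, 346 CPM in G, 341 CPM in T, 305 CPM in FSC, 283 CPM in L, 210 CPM in S and 188 CPM in EC. The hormone genes took 30.2% of UMIs in S, 27.4% in L and 0.587% in FSC, and with hormones and globins left out of the totals the order of L and FSC turned: the sum was 659 CPM in C, 494 in Le, 408 in T, 406 in G, 390 in L, 306 in FSC, 301 in S and 189 CPM in EC. The lanes of C (509 to 536.2 CPM) and of Le (445.6 to 520.6 CPM) overlapped and lay above every lane of the other types, the highest of which was 416.9 CPM in T. The sum in L was 238.6 and 242.4 CPM in the female lanes and 366.9 and 370 CPM in the male lanes, without overlap. These sums rest on raw totals. The median sex difference of all genes tested in L was 0.67 on the log2 scale with library size alone and 0.02 with TMM factors. The sums in L therefore give no size of a sex difference of the members. At least 1 member was found in 98.7% of C and 69.7% of EC, with the other 6 types between. Median UMIs per cell, which bear on such shares, were 11474 in C and 7335.5 in EC. The families behind these sums differed: GABA-A genes summed to 162 CPM in C and 86.6 to 107 CPM in the other HPC, against 1.89 CPM in Le, whereas P2Y genes summed to 238 CPM in Le and to 5.87 CPM or less in each HPC type.

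**Figure D1:**
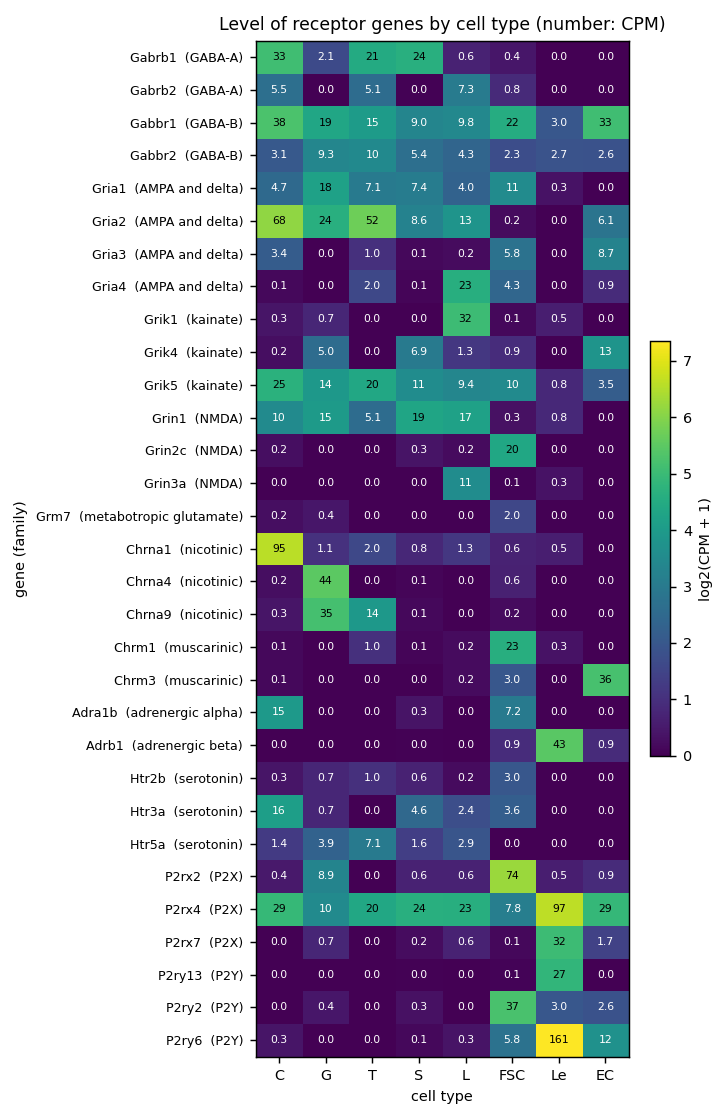
Level of 31 receptor genes (rows, with the family) in 8 cell types (columns); colour is log2(CPM + 1) and the number in each cell is the CPM over all cells of the type. The hormone-producing types share glutamate receptor genes such as *Gria2* and *Grin1*, and *P2ry6*, *P2ry13* and *Adrb1* stand at their highest in Le.

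For tests, the UMIs of each type were added up within a sex and fitted with edgeR's quasi-likelihood test across the 13625 genes that passed a filter on low counts. A gene was called at a Benjamini-Hochberg adjusted p below 0.001, the limit of the study. Of the 79 members, 47 passed the filter and 32 were too low to test. Because a member can pass through the very type in which it is high, the following counts describe the members and are given beside the percentage of all tested genes called in the same way. Against the mean of the other 7 types, 13 of 47 members were called higher in C (8.92% of all genes), 7 in G (6.52%), 2 in T (3.27%), 6 in S (9.03%), 8 in L (6.36%), 11 in FSC (16.5%), 10 in Le (17.8%) and 2 in EC (12.1%). Only FSC and Le had members called lower, 2 (3.71% of all genes) and 3 (9.49%). They included *P2rx4* in FSC, and *Grik5* and *Gabbr1* in Le. Over the 8 contrasts, 42 of 47 members were called higher in at least 1 type (53.4% of all genes) and 13 in more than 1 (19.3%). The median log2 difference of the members was -2.69 in Le and -2.02 in EC, against -0.17 and -0.21 for all tested genes, and 1.17 in C against 0.06. A log2 difference from the mean of other types depends on the prior count of the fit where a type has no UMI. The median fell on *Grin2c* in Le (standard error 2693000) and on *Grin3a* in EC (12610), so these medians give no size of a difference. Single genes are described below by their levels, and by the difference from the next highest type.

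Higher in 1 type than in each of the other 7, with every contrast called, were 7 of 47 members (8.32% of all genes), among them *Chrna1* in C, *P2rx2* in FSC, and *P2ry6*, *Adrb1*, *P2rx4* and *P2rx7* in Le. With erythrocytes in the fit, edgeR called none of the 7, and DESeq2 did not call *P2ry6* and *Adrb1* (adjusted p = 0.044 and 0.44). With sums per lane in place of sums per sex, 17 of 32 members tested were called (20.8% of all genes), which added *Chrna4* in G, *Gabre* in S, *Gria4* in L, *P2ry2*, *Chrm1* and *Grin2c* in FSC, *P2ry14*, *P2ry13* and *P2ry12* in Le, and *Chrm3* in EC. In 24 of the 47 tested members, all 4 lanes of 1 type lay above every lane of the other types (28.0% of all genes). Over all 79 members this held for 32, of which 9 were highest in Le, 8 in FSC, 6 in C, 4 in L, 2 each in S and EC, 1 in G and none in T. The type with the highest level was C for 15 members, FSC for 16, T and Le for 11 each, G and L for 8 each, and S and EC for 5 each. No share of all genes is given beside the tallies over 79 members, so they describe the members only. By the test, all genes called highest in 1 type were 587 in Le, 297 in EC, 178 in FSC, 29 in C, 19 in L, 18 in G, 5 in S and 1 in T.

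The GABA-A genes set the HPC apart from FSC, Le and EC: the family summed to 162 CPM in C and 86.6 CPM or more in each HPC type, and to 19.2 CPM in FSC, 11.3 in EC and 1.89 CPM in Le. *Gabrb1*, a beta subunit, was at 29.8 and 36.2 CPM in the female and 31.03 and 33.7 CPM in the male lanes of C, and at 23.6, 25.9, 21.9 and 25.02 CPM in those of S. The lanes of C lay above every lane of the other types. T followed with 21.3 CPM, and G and L were at 2.15 and 0.63 CPM. Within T it was uneven, with 0 and 12.3 CPM in the female and 27.8 and 26.5 CPM in the male lanes, which held 18 to 28 T each. *Gabrb1* was called higher in C and in S than in the mean of the other types (edgeR adjusted p = 9.3e-07 and 8.5e-07).

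*Gabrb2*, another beta subunit, was highest in L at 7.30 CPM and was called higher there (adjusted p = 2.2e-04). Its L lanes, 2.34 and 2.87 CPM in females and 16.4 and 17.4 CPM in males, overlapped those of C, 2.81 to 8.03 CPM, and 1 lane of T at 18.5 CPM. S carried further classes of subunit: *Gabre*, an epsilon subunit, at 17.2, 14.2, 13.3 and 12.9 CPM, and *Gabrq*, a theta subunit, at 6.28 CPM over all lanes from 166 UMIs, with 1 UMI in all other types together. *Gabre* in S lay above every lane of the other types, the next of which was G with 3.58 CPM; its log2 difference from L, the next type in the fit, was 2.19 ± 0.48, and the largest of the adjusted p-values against the other types was 0.010. *Gabra4* was at 13.7 CPM in S, 12.2 in C and 8.12 in T, and *Gabra2* was highest in G at 7.87 CPM. *Gabrg1*, a gamma subunit, was the only GABA-A gene found in more than 5% of FSC (10.7 CPM in 8.30% of cells) and was at 3.76 CPM in C. These genes outside the rule for named genes (*Gabre*, *Gabrq*, *Gabra4*, *Gabra2* and *Gabrg1*) were picked after their values were seen.

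The GABA-B genes were spread more evenly. *Gabbr1*, the subunit that binds GABA, was at 37.7 CPM in C, 33.0 in EC, 22.5 in FSC, 19.3 in G, 15.2 in T, 9.83 in L, 9.04 in S and 2.97 CPM in Le. Its lanes overlapped between C (33.2 to 42.3 CPM) and EC (16.5 to 43.1 CPM), and those of S and L, 6.97 to 11.2 CPM, lay below every C lane. *Gabbr1* was called higher in C (1.48 ± 0.20 on the log2 scale over the mean of the other types, adjusted p = 3.7e-05) and lower in Le (-2.23 ± 0.38, adjusted p = 1.4e-04). *Gabbr2*, the partner subunit that couples to the G protein, was at 10.2 CPM in T and 9.30 in G and between 2.33 and 5.41 CPM elsewhere, and no type was called.

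Among the AMPA receptor genes, *Gria2*, whose subunit limits calcium entry, was found in all 5 HPC types. It stood at 69.8, 63.9, 66.1 and 72.9 CPM in the lanes of C and at 48.1, 24.7, 48.0 and 72.8 CPM in those of T. The lanes of the 2 types overlapped. G followed with 23.6 CPM, then L with 13.0 and S with 8.63 CPM. Outside the HPC, EC was at 6.09 CPM from 7 UMIs, and only 3 UMIs were found in FSC. The lanes of EC (3.54 to 8.08 CPM) overlapped those of S (5.25 to 13.6 CPM). *Gria2* was called higher in C and in T (adjusted p = 9.0e-07 and 6.0e-04). Among the 8 types, *Gria4* was highest in L. It was at 18.8, 18.2, 28.1 and 38.8 CPM there and at 4.34 CPM in FSC, the next type. All L lanes lay above every lane of the other types. The log2 difference from FSC was 3.17 ± 0.43, and the largest edgeR adjusted p against the other types was 0.0064. Outside the 8 types, posterior pituitary cells held *Gria4* at 43.6 CPM, and pericytes held it at 24.7 CPM from 9 UMIs. *Gria1* was found in G (17.5 CPM), FSC (10.6) and S (7.42), and *Gria3* in EC (8.69 CPM from 10 UMIs), FSC (5.82) and C (3.44).

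The kainate and NMDA receptor genes differed from each other in the type with their highest level. *Grik1* was at 31.9 CPM in L and at 0.72 CPM or less in each other type; all but 3 of its 201 UMIs in L came from females. *Grik5*, a high-affinity kainate subunit, was at 24.9 CPM in C, 20.3 in T, 13.9 in G and 9.36 to 10.8 CPM in L, FSC and S; it was called higher in C (1.75 ± 0.22, adjusted p = 1.7e-05) and lower in Le (-3.40 ± 0.52, adjusted p = 4.6e-05). *Grik4*, its relative, was at 13.0 CPM in EC from 15 UMIs and at 6.92 CPM in S, and was called higher in both. *Grin1*, the obligatory NMDA subunit, was at 19.0 CPM in S, 17.3 in L, 15.02 in G, 10.4 in C and 5.08 in T, against 0.26 CPM in FSC. *Grin2c*, a glutamate-binding NMDA subunit, showed the reverse: 16.2, 11.5, 24.9 and 25.0 CPM in the lanes of FSC, and at most 0.30 CPM in any other type. Its lowest FSC lane lay above every lane of other types, and the log2 difference from S was 5.34 ± 0.54, with a largest adjusted p of 0.0028. *Grin2c* and *Grin1* were found together in 1 of 2313 FSC. *Grin3a*, a glycine-binding NMDA subunit, was at 10.8, 10.0, 14.5 and 8.18 CPM in L, above all other lanes, and had 2 UMIs outside it. Metabotropic glutamate receptors were scarce, at 3.97 CPM or less for the 4 genes together in every type, and 0 UMIs in Le and EC. Their best-covered gene, *Grm7*, was at 1.96 CPM in FSC.

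Nicotinic receptor genes were high in C, G and T: the family summed to 125, 107 and 62.9 CPM there, and to 5.22 to 11.3 CPM in each other type. C and G each had the highest level of a different alpha subunit gene. *Chrna1*, the alpha subunit of the muscle receptor, was at 109 and 103 CPM in the female and 82.9 and 89.8 CPM in the male lanes of C, where it was found in 53.2% of cells (27.9% after each cell was thinned to 4000 UMIs). Every C lane lay above every other lane, and T, the next type, had 2 UMIs (2.03 CPM). The log2 difference from T was 5.603 ± 0.62, and the largest adjusted p was 4.8e-05. *Chrna4*, an alpha subunit of brain receptors, was at 28.7 and 23.2 CPM in the female and 92.8 and 73.4 CPM in the male lanes of G. These lanes lay above all others, the next type being FSC at 0.58 CPM, with a log2 difference of 6.41 ± 0.71 and a largest adjusted p of 0.0094. *Chrna9*, known from the receptor of cochlear hair cells, was at 52.0, 41.2, 16.2 and 8.39 CPM in G and at 14.2 CPM in T. The lanes of G and T overlapped, and its G contrast against the mean of the other types was called (adjusted p = 9.5e-06). *Chrnb2*, the usual partner of *Chrna4* and named after its values were seen, was at 20.8 CPM in G, 20.3 in T and 19.6 in C. The partners of *Chrna1* in the muscle receptor were low in C, with *Chrnb1* at 0.64, *Chrne* at 2.36 and *Chrnd* at 0.75 CPM. They were found in 6, 12 and 6 of 793 cells.

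**Figure D2:**
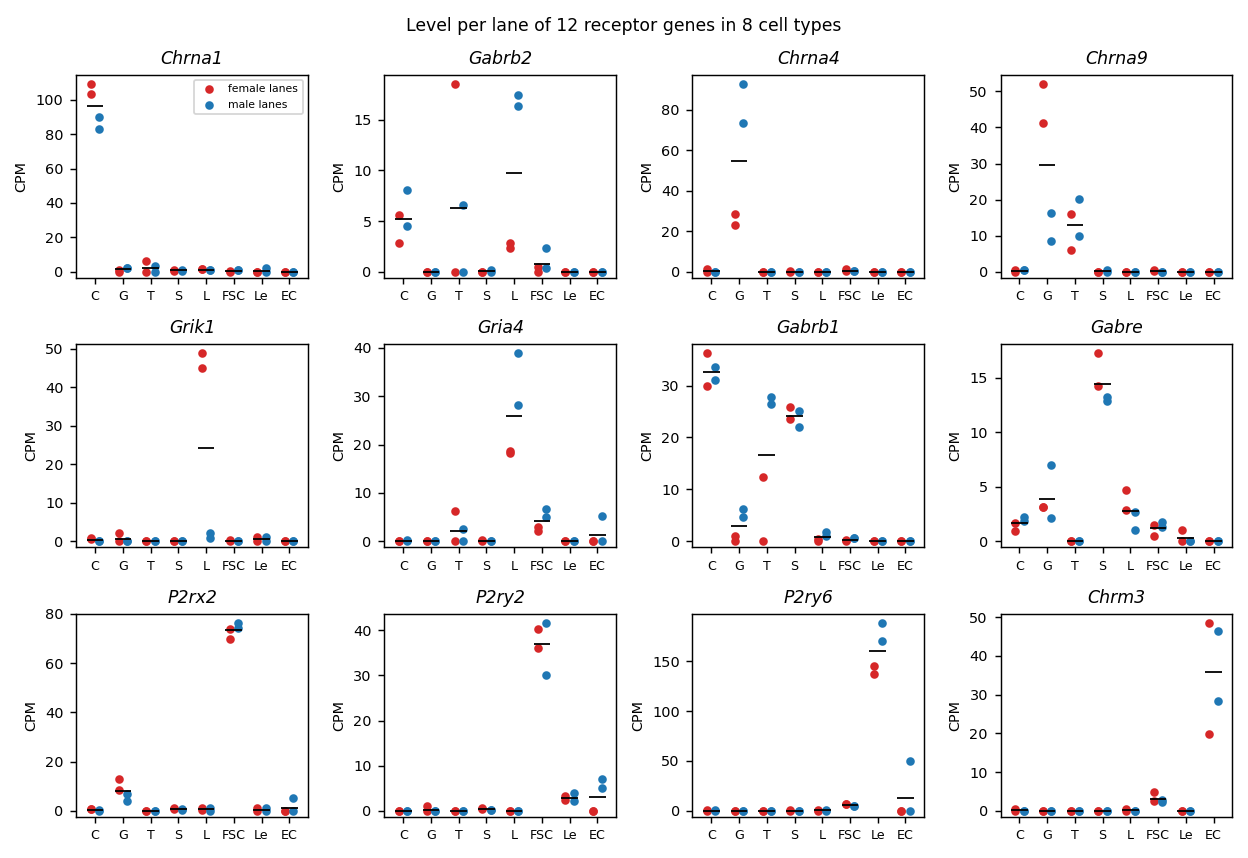
Level in each lane (CPM) of 12 receptor genes in 8 cell types; red points are the 2 female lanes, blue points the 2 male lanes and lines the mean of the 4. *Chrna1*, *P2rx2*, *P2ry6* and *Chrm3* have all 4 lanes of 1 type above the rest, while *Grik1* in L, *Chrna4* and *Chrna9* in G and *Gabrb2* in L split by sex.

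The promoters of these 3 alpha subunit genes, each with its own distribution over C, G and T, are shown from 250 bases before to 50 bases after the annotated start (RefSeq, build GRCr8, written 5′ to 3′ on the strand of the gene). Capitals mark E-boxes, the letters CANNTG that basic helix-loop-helix factors can bind; the motif is the same on both strands. *Chrna1* lies at chr3:78877304-78877603, *Chrna4* at chr3:188534477-188534776 and *Chrna9* at chr14:42595620-42595919, all on the minus strand.
Chrna1: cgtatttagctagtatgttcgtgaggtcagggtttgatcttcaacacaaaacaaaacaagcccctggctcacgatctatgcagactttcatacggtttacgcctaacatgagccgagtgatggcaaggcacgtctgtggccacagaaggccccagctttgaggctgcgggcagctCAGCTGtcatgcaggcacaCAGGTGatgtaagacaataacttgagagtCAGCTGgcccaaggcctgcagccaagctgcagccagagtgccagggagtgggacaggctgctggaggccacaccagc
Chrna4: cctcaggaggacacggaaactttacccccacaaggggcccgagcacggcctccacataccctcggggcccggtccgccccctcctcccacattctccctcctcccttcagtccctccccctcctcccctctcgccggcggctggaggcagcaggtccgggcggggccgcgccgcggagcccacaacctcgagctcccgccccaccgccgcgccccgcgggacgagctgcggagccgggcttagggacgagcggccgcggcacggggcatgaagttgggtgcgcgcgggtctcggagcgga
Chrna9: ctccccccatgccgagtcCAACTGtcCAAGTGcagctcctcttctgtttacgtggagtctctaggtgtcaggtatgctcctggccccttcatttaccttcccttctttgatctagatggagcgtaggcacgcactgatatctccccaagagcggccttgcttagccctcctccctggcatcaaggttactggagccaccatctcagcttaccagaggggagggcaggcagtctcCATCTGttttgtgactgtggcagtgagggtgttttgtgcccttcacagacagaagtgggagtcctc
The windows of *Chrna1* and *Chrna9* hold 3 E-boxes each and that of *Chrna4* none. GC content is 55% in *Chrna1*, 55.3% in *Chrna9* and 74.7% in *Chrna4*, against a median of 51.7% over all 33469 promoters of the table. An E-box is found in 72.1% of all promoters and in 38 of the 59 members with an entry (64.4%). The other 20 members have no entry.

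*Chrm1* and *Chrm3*, muscarinic receptor genes that couple to calcium release, were found outside the HPC. *Chrm1* was at 19.3, 17.1, 28.1 and 26 CPM in the lanes of FSC, all above every other lane, with 6 UMIs in the other 7 types. The log2 difference from T was 4.38 ± 1.04, with a largest adjusted p of 0.0062. *Chrm3* was at 48.5, 19.8, 28.4 and 46.3 CPM in EC and at 3.02 CPM in FSC. The EC lanes lay above all others (log2 difference from FSC 3.40 ± 0.59, largest adjusted p 0.0026). Markers of mural cells, which can cling to endothelium, summed to 59.2 and 59.5 CPM in the female EC lanes and to 337 and 618 CPM in the male ones, and their part in the level of *Chrm3* was not tested. *Chrm4*, an inhibitory muscarinic receptor gene named after its values were seen, was at 4.65 CPM in G and at 40.1, 0, 7.58 and 3.31 CPM in the lanes of T, from 9 UMIs. Lane 1 held 5 of these, and without it T was at 4.65 CPM as well.

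Adrenergic receptor genes of both classes were found in FSC, and those described here differed in the type with their highest level. *Adra1b*, which couples to calcium release, was at 13.5, 13.2, 16.4 and 14.96 CPM in C and at 5.63, 6.32, 8.48 and 7.90 CPM in FSC. The lanes of C lay above those of FSC (log2 difference 1.23 ± 0.43, adjusted p = 0.038, not called), both types were called higher than the mean of the rest, and G, T, L, Le and EC had 0 UMIs, which allows at most 3.05 CPM in T, the shallowest of them. *Adrb1*, which raises cyclic AMP, was highest in Le. It was at 46.9, 58.0, 32.8 and 37.9 CPM there and at 0.90 CPM in FSC, the next type. Every Le lane lay above every other lane. The log2 difference from FSC was 6.17 ± 0.56, with a largest adjusted p of 2.0e-04 by edgeR. By DESeq2 it was not called (0.44).

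Among the 8 serotonin receptor genes, only *Htr3a* was found in over 5% of the cells of any type. It was at 14.1, 24.0, 10.9 and 17.6 CPM in C, above every lane of the other types, and at 4.58 CPM in S, and it was called higher in C than in the mean of the rest (adjusted p = 1.4e-04). *Htr5a*, an inhibitory receptor gene, was at 3.94 CPM in G, with 0 UMIs in FSC. In T it was at 0, 24.7, 5.05 and 3.31 CPM in the 4 lanes from 7 UMIs, and at 3.65 CPM without lane 2. *Htr2b* was at 2.96 CPM in FSC from 56 UMIs.

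P2X genes encode channels opened by ATP. *P2rx2* was at 69.8, 74.0, 74.4 and 76.3 CPM in FSC, in 39.5% of cells, and at 8.94 CPM in G. The FSC lanes lay close together and above every other lane, the highest of which was 12.8 CPM in G, and the log2 difference from G was 2.98 ± 0.36 (largest adjusted p = 1.8e-05). *P2rx4* was found in every type: 108, 60.1, 107 and 113 CPM in the lanes of Le, then 29.1 CPM in C, 28.7 in EC, 23.8 in S, 23.5 in L, 20.3 in T, 10.4 in G and 7.78 CPM in FSC. The lowest Le lane lay above every other lane, whereas the lanes of C, EC, S, L and T overlapped. *P2rx4* exceeded L, the next type in the fit, by 2.01 ± 0.26 on the log2 scale (largest adjusted p = 1.9e-05). *P2rx7*, known from macrophages, was at 30.8, 23.6, 32.8 and 39.0 CPM in Le and at 1.74 CPM or less elsewhere, with a log2 difference of 4.86 ± 0.82 from EC (largest adjusted p = 4.2e-04). That call was lost without lane 1 (adjusted p = 0.0011).

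P2Y genes followed the same division into FSC and Le. *P2ry2*, a receptor for ATP and UTP, was at 40.4, 36.1, 41.6 and 30.1 CPM in FSC and at 2.97 CPM in Le. The FSC lanes lay above all others; the log2 difference from Le was 3.03 ± 0.56, with a largest adjusted p of 0.0013. *P2ry6*, a receptor for UDP, was at 137, 145, 171 and 188 CPM in Le, in 58.8% of cells. The next type was EC at 12.2 CPM, from 14 UMIs in 2 cells of lane 3, so that the other 3 EC lanes were at 0. Its log2 difference from EC was 4.40 ± 0.60 (largest adjusted p = 6.7e-05 by edgeR and 0.044, not called, by DESeq2). *P2ry13*, a receptor for ADP, was at 25.9, 33.3, 27.0 and 22.7 CPM in Le with 2 UMIs in all other types. *P2ry14*, *P2ry12* and *P2ry10*, at 20.8, 16.2 and 7.56 CPM in Le and named after their values were seen, were likewise above every other lane.

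Le was mostly made of macrophages by its markers, and the purinergic genes and *Adrb1* were found there. Of 548 Le, 493 carried at least 3 of 5 macrophage markers and 12 at least 2 of 3 T and NK cell markers; 43 met neither rule. In the 493 cells *P2ry6* was at 175 CPM, *P2rx4* at 103, *Adrb1* at 46.2 and *P2rx7* at 35.1 CPM. In the 43 cells *P2ry6* was at 41.9 CPM (23.3% of cells), *P2rx4* at 48.3 CPM (25.6%), *Adrb1* at 22.5 CPM from 7 UMIs and *P2rx7* at 0. In the 12 cells none of these 4 genes, nor *P2ry12*, *P2ry13* and *P2ry14*, had a UMI. At their median of 4511 UMIs, this allows a UMI in up to 26.5% of such cells (95% exact binomial limit), which does not limit the share that express the genes. *Chrne*, the epsilon subunit of the muscle nicotinic receptor, was found in 3 of the 12 cells (6 UMIs), in 9 of the 43 (13 UMIs, 41.9 CPM) and in 12 of the 493, and in Le as a whole at 8.37 CPM.

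Between the HPC and FSC, receptor genes changed in both directions. Against FSC, the mean of the 5 HPC types was called higher for 8 of 47 members (9.26% of all genes) and lower for 12 (17.2%). Among the 8 were *Grin1* (5.65 ± 0.52 on the log2 scale), *Chrnb2* (4.83 ± 0.51), *Gabrb1* (4.58 ± 0.65), *Gria2* (7.33 ± 0.68), *P2rx4* (1.73 ± 0.24) and *Htr5a*. *P2rx4* was the only P2X or P2Y gene among the 8. Among the 12 were *P2ry2*, *P2ry6*, *P2ry1*, *P2rx2*, *P2rx6*, *Chrm1*, *Chrm3*, *Adra1b*, *Grin2c*, *Gabrg1* and *Gria4*. For *Htr5a* and for each of these 11 genes, at least 1 of the 6 types had 0 UMIs, so that the size of the difference depends on the prior count. *Gria4* was called lower in the mean of the HPC, while L alone stood at 23.3 CPM against 4.34 CPM in FSC. The same holds for *Adra1b*, at 14.7 CPM in C against 7.20 CPM in FSC. For 6 further members the contrast had no estimate.

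**Figure D3:**
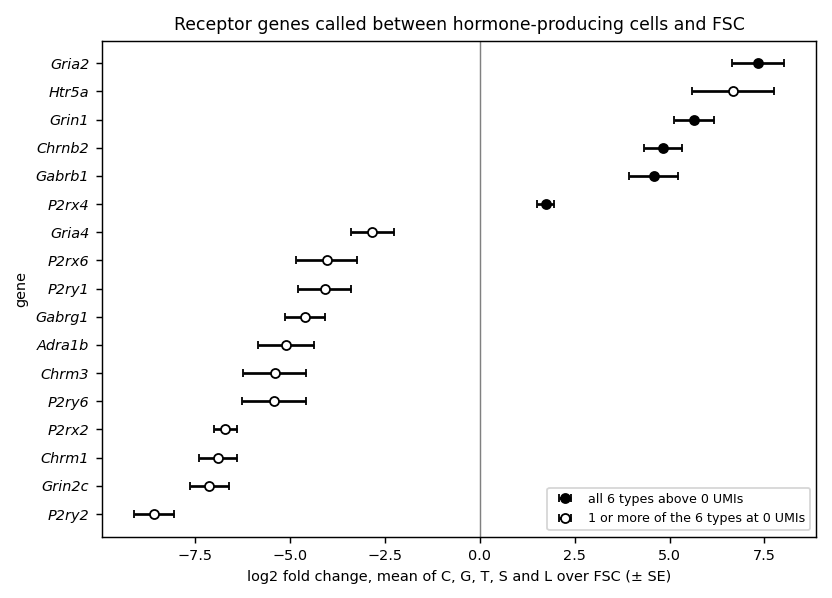
Log2 fold change (± SE) of the mean of C, G, T, S and L over FSC for 17 receptor genes called; open points have 0 UMIs in at least 1 of the 6 types, so their position depends on the prior count of the fit. *Gria2*, *Grin1*, *Chrnb2* and *Gabrb1* lie to the right, and the P2Y and muscarinic genes to the left.

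The sexes were compared within each type, 2 female lanes against 2 male lanes, and values are males over females. Of the members, 50 could be tested in at least 1 type. In G, 1 of 9 was called higher in females (2.23% of all genes tested in G). In S, 2 of 18 were higher in females (5.67%) and 1 in males (4.83%). In L, 1 of 13 was higher in females (11.7%) and 4 in males (5.91%). In FSC, 1 of 23 was higher in males (1.11%). In C, T, Le and EC none of 18, 2, 8 and 3 members was called by edgeR or by DESeq2, and 1, 0, 2 and 0 of them had an unadjusted p under 0.05.

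L held 5 of the 10 called pairs of member and type. Over all genes, L held 1009 of 2154 pairs higher in females and 511 of 1421 higher in males. The count is therefore not read as a result about the members. *Grik1* was at 45.0 and 48.8 CPM in the female lanes (44.1% of 227 cells) and at 0.908 and 2.04 CPM in the male lanes (0.772% of 259 cells). It was lower in males by -5.57 on the log2 scale (adjusted p = 3.7e-16). *Gabrb2*, at 2.34 and 2.87 CPM in females against 16.4 and 17.4 CPM in males, and *Gria2*, at 5.16 and 5.74 against 31.8 and 24.5 CPM, were higher in males (2.01 and 1.72 on the log2 scale, adjusted p = 2.0e-04 and 6.1e-05). In none of the 3 genes did female and male lanes overlap, but the calls rest on these same lanes, so this is no separate support. Depth and hormone load differed in the same cells: median UMIs were 18301 in female and 7265 in male L, the hormone genes took 32.4 and 31.4% of UMIs in the female and 18.8 and 17.9% in the male lanes, and the median sex difference of all genes tested in L was 0.67 on the log2 scale with library size alone and 0.02 with TMM factors. With the 7 hormone genes left out of counts and totals, the number of calls over all types was 4 in females and 6 in males, as with them in. Markers of FSC summed to 10.2 to 63.6 CPM in the L lanes, of pericytes to 8.61 to 87.9 CPM and of mast cells to 8.18 to 21.0 CPM, and their part in the differences was not tested. *Gabrb2* was no longer called when any 1 of the 4 lanes was left out (largest adjusted p = 0.011) and *Gria2* without lane 3 (0.0068), while *Grik1* was called throughout. By DESeq2 *Grik1* was called in L (9.3e-09), and *Gabrb2* (0.061) and *Gria2* (0.025) were not.

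The promoter of *Grik1*, the member with the largest difference between the sexes in L, lies at chr11:41056454-41056753 on the minus strand and holds 2 E-boxes (capitals), with a GC content of 58.7%.
Grik1: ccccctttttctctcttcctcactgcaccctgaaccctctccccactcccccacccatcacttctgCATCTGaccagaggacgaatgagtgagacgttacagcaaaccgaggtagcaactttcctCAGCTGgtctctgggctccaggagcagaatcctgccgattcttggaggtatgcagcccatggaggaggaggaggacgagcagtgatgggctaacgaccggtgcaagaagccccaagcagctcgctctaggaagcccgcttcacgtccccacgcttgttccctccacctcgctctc

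In G, *Gria1* was at 27.6 and 23.2 CPM in the female lanes and at 2.32 and 0 CPM in the male lanes. The male lanes held 1 UMI in 93 cells against 48 in 145 female cells. Median UMIs were 12316 in female and 8871 in male G. The hormone genes took 15.7 and 18.8% of UMIs in the female and 9.84 and 8.86% in the male lanes. The part of depth in the difference was not tested. For *Gria1* in G, the log2 difference was -4.56 ± 0.74 (edgeR adjusted p = 9.2e-04). This call was lost without lane 1, lane 2 or lane 4 (largest adjusted p = 0.031), and by DESeq2 (0.038). The nicotinic subunits of G came close to the limit in opposite directions. *Chrna9* stood at -2.19 ± 0.38 (edgeR adjusted p = 0.0015) and *Chrna4* at 1.40 ± 0.26 (edgeR adjusted p = 0.0027). In S, *Gria1* was at 11.4 and 14.8 CPM in females and 3.41 and 3.77 CPM in males (-1.92, adjusted p = 4.2e-08), and *Gria2* was at 13.6 and 11.1 against 5.25 and 7.04 CPM (-1.05, adjusted p = 1.9e-04). *P2rx4* in S was at 16.1 and 18.7 CPM in females and 27.2 and 28.8 CPM in males (0.63, adjusted p = 2.6e-04). The lanes of the sexes did not overlap in any of the 3, but the calls rest on these same lanes. Median UMIs were 11565 in female and 15457 in male S, and the part of depth was not tested. Without lane 1, *Gria2* and *P2rx4* were not called (adjusted p = 0.0040 and 0.014), nor *Gria2* without lane 3 (0.0028) or *P2rx4* without lane 4 (0.0017). By DESeq2 *Gria1* was called in S (6.7e-06), and *Gria2* (0.024) and *P2rx4* (0.050) were not.

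In FSC, *Gria3* was at 1.22 and 0.903 CPM in the female lanes and 8.48 and 10.98 CPM in the male lanes (3.13, edgeR adjusted p = 3.3e-05). It was found in 0.780% of 1154 female and 7.77% of 1159 male FSC, and was not called when any 1 lane was left out (largest adjusted p = 0.052). By DESeq2 it was called (2.4e-04). The hormone genes took 0.486 and 0.477% of UMIs in the female and 0.567 and 0.783% in the male FSC lanes, and their part was not tested.

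**Figure D4:**
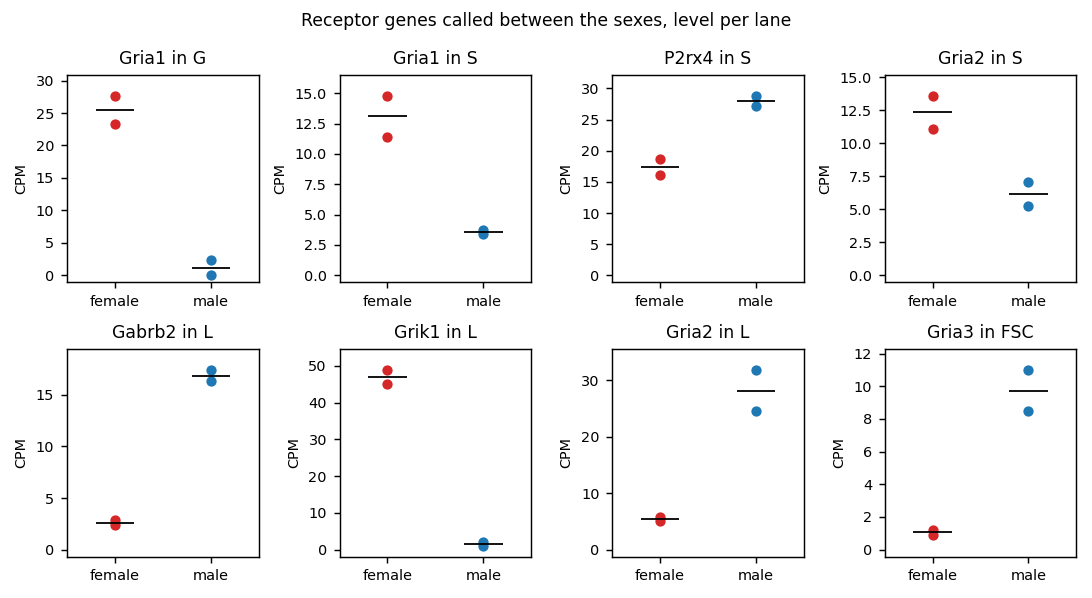
Level per lane (CPM) of 8 pairs of receptor gene and cell type called between the sexes; each point is 1 lane (red female, blue male) and the bar is the mean of 2 lanes. The pairs were called on these same lanes, so the gap between female and male lanes is no separate support. *Gria2* is lower in males in S and higher in males in L.

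Whether a sex difference in 1 type differed from that in others was tested in a fit over all type and lane sums. The contrast with the mean of the other 7 types had no estimate for 9 of the 10 pairs, since some sums were 0, and for *P2rx4* in S the difference was 0.35 ± 0.22 (adjusted p = 0.55). With 1 sex term shared by the other 7 types, an alternative chosen after seeing the data, 1 of the 10 pairs was called. Of all 12750 genes, the same fit called 591 in L, 67 in G, 56 in S and 6 in FSC. *Gria2* in L (2.05 ± 0.46, adjusted p = 0.0016) and *Gria3* in FSC (3.26 ± 0.74, adjusted p = 0.034) missed the limit. Members called in 2 types were also compared between those types, likewise chosen after seeing the data. *Gria2*, called in opposite directions in L and S, differed by 2.75 ± 0.40 (edgeR adjusted p = 2.8e-07). It was picked for its calls on these same lanes, so that p-value adds no separate support. The contrast of L with S called 1046 of 12750 genes. *Gria1* did not differ between G and S at the limit (-2.81 ± 1.07, adjusted p = 0.14).

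Genes that make, move or clear the transmitters and genes of auxiliary subunits were counted as lists. Of 62 such genes, 31 were tested, 28 were called higher in at least 1 type (53.4% of all genes), and 3 (8.32%) were higher in 1 type than in each other: *Slc12a2*, a chloride importer, in EC, *Glul*, which makes glutamine from glutamate, in Le, and *Maob*, a monoamine oxidase, in FSC. Between the HPC and FSC, 8 were higher in the HPC (9.26% of all genes) and 11 in FSC (17.2%). The AMPA auxiliary gene *Cacng2* was at 65.9 CPM in C and 19.2 in S, and *Cnih2* at 51.4 to 119 CPM in the 5 HPC types against 15.1 CPM in FSC. *Lynx1*, a modulator of nicotinic receptors, was at 169 CPM in G and 132 in T and at 15.2 CPM or less elsewhere. *Slc1a3*, a glutamate transporter, was at 161 CPM in FSC and 29.5 in L, and was called higher in both. *Slc17a6*, a vesicular glutamate transporter, was at 36.8 CPM in G and 21.3 in T, and was likewise called higher in both. By list, 2 of 9 GABA, 4 of 8 glutamate, 2 of 5 acetylcholine, 5 of 13 monoamine, 5 of 6 ATP and 13 of 21 auxiliary genes were tested, and 2, 3, 2, 5, 4 and 12 of them were called higher in some type. Between the sexes, 2 of 115 pairs of gene and type were higher in females (3.33% of all pairs) and 6 in males (2.20%), among them *Lynx1* in G (2.89 ± 0.16, adjusted p = 1.4e-07) and *Slc18a2*, a vesicular monoamine transporter, in S (3.78 ± 0.37, adjusted p = 1.2e-09).

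The 32 members that were not tested between types had 10 to 210 UMIs in the 8 types together. The best covered was *Grik1*, which passed the filter in 1 of the 2 L sums. Others, named after their values were seen, were *Grik2*, a kainate subunit gene, at 5.08 CPM in L, and *Chrna10*, the usual partner of *Chrna9*. *Chrna10* was at 48.1, 18.5, 2.53 and 3.31 CPM in the lanes of T from 11 UMIs, with 11.2 CPM over all lanes and 5.81 CPM without lane 1. A level of 0 allows up to 3 UMIs, which is 0.11 CPM in S and 3.05 CPM in T, so that absence was not detectable to the same level in each type. Such limits and intervals cover counting error only.

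Cells that the markers placed outside the 8 types carried some members at higher levels. They were 60 melanotrophs (4 female), 59 posterior pituitary cells (4 female) and 51 pericytes (20 female), with 1 pool per sex. Melanotrophs, which make alpha-MSH in the intermediate lobe, held *Gabra2* at 53.8 CPM (95% Poisson interval 38.3 to 73.5) against 7.87 CPM in G, and *Htr3a* at 45.5 CPM (31.3 to 63.9) against 16.4 CPM in C. Posterior pituitary cells held *Grik3*, a kainate subunit gene, at 344.3 CPM (301 to 392), from 229 UMIs in 57.6% of cells, and *Htr2a* and *Gria4* at 33.1 and 43.6 CPM. Pericytes held *Adra2a*, an inhibitory adrenergic receptor gene, at 85.0 CPM (57.8 to 121), against 1.27 CPM in FSC.

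**Figure D5:**
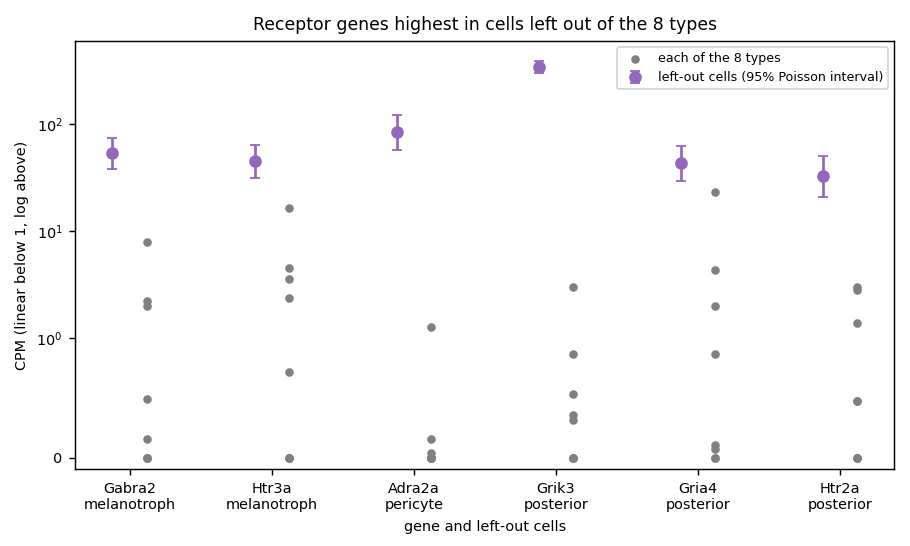
Level (CPM, linear below 1 and logarithmic above) of 6 pairs of receptor gene and cells left out of the 8 types; purple points are the left-out cells with a 95% Poisson interval, which covers counting error only, and grey points are the 8 types. *Grik3* in posterior pituitary cells, at 344.3 CPM, stands over all 8 types, the highest of which is 3.05 CPM.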

How the data were processed

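Single cells of pooled anterior pituitaries (4 female and 4 male rats) were captured on 4 lanes. The authors aligned the reads and counted UMIs with Cell Ranger 2.1. The study states that the lanes were joined into 1 table in the mapped normalization mode of that tool. The deposited table holds UMI counts per gene and cell, not divided by the total of each cell. Lanes were read from the barcode suffix and matched to the sexes by the number of cells per lane that the study gives. Cells were typed by the study's marker rules, with 190 typed by their neighbours. Mitochondrial outliers (273), gene or UMI outliers (328), doublets found by simulated doublets (188), ambiguous cells (207), unclassified cells (26), pericytes (51), melanotrophs (60) and posterior pituitary cells (59) were left out of the 8 types. Of the barcode sequences, 30 were found in more than 1 lane, and cells were kept apart by lane.

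UMIs were summed per type and sex (16 sums) for comparisons of types, with sex as a term, and per type and lane (32 sums) for comparisons of the sexes. Both were fitted with edgeR 4.0.16 (quasi-likelihood, TMM factors, filterByExpr with a minimum count of 10) in R 4.3.3, with Benjamini-Hochberg adjustment and a limit of 0.001. DESeq2 1.42.0, other normalizations, no filter, other cell filters, sums per lane, erythrocytes as a further type, the study's size criteria, a limit of 0.05 and leaving out each lane were alternatives. Levels are sums divided by the total of the type, and shares of cells were also computed with each cell thinned to 4000 UMIs. On simulated counts, 98.5% of 200 genes raised 4-fold in G were called against the rest and 66% as highest in 1 type. These were drawn from genes with more UMIs than most members had. Between the sexes, 95% (G) to 99.5% (S and L) of 200 genes changed 4-fold were called. Of 200 genes changed 2-fold, 27% were called in G, 44% in L, 62% in FSC and 66% in S.

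The members and lists were chosen with earlier results of these data known. Genes named were those called highest in 1 type, those called between the sexes, the 3 of each family with the highest level in any type among those with 30 or more UMIs there, and *Chrna1*, *Chrna4*, *Grik1* and 1 more that the study singles out; others are said to be named after their values were seen, including those given as a count of calls, as 1 of a pair of subunits, or among cells left out. Of the members, 5 are not reported here; counts and sums include them. The counts rest on an NCBI rat reference, named Rnor6 by the study, with 3′ annotations lengthened by the authors. Promoters came from a RefSeq table of another build, GRCr8, and no count was joined to them by position.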

Additional observations from a re-analysis of the deposited data

Results flagged for a closer look

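*Gria2* was called higher in males in L and lower in males in S. The sex difference of the 2 types differed by 2.75 ± 0.40 on the log2 scale (edgeR adjusted p = 2.8e-07). This comparison was chosen after seeing both calls on the same lanes, so its p-value adds no separate support. Neither call was made by DESeq2, and each was lost when a lane was left out.

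Levels in cells outside the 8 types, above the highest level in those types, make up the others. *Gabra2* was at 53.8 CPM and *Htr3a* at 45.5 CPM in melanotrophs, in 36.7 and 45.0% of 60 cells, against at most 7.87 and 16.4 CPM in the 8 types. *Adra2a* was at 85.0 CPM in pericytes, in 35.3% of 51 cells, against 1.27 CPM. In posterior pituitary cells *Grik3* was at 344.3 CPM, *Gria4* at 43.6 CPM and *Htr2a* at 33.1 CPM, against 3.05, 23.3 and 3.05 CPM. Melanotrophs and posterior pituitary cells held 4 female cells each and pericytes 20. Each sex is 1 pool, and no test was made.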

How the results depend on the processing

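No tested result reversed its direction under the alternatives run. The order of the summed levels of L and FSC, and of G and T, turned with hormones and globins left out. Calls of a type against the rest (59 higher, 5 lower) became 96 and 11 with no filter on low counts, 100 and 16 at a limit of 0.05, and 9 higher with the size criteria of the study; the lower calls became 11 with DESeq2, 11 with sums per lane and 3 with erythrocytes in the fit. Leaving out 1 lane gave 50 to 59 higher and 2 to 5 lower calls, the 2 without lane 1. Members highest in 1 type (7) became 18 with no filter and 17 of 32 tested with sums per lane (20.8% of all genes). They became 21 at a limit of 0.05, 0 by edgeR with erythrocytes in the fit, and 7 to 8 with a lane left out. By DESeq2 *P2ry6* and *Adrb1* were not called (adjusted p = 0.044 and 0.44). Between HPC and FSC, the 8 members higher in HPC became 13 at a limit of 0.05 and 1 with the size criteria, and 7 to 8 with a lane left out, and the 12 higher in FSC became 2 with the size criteria and 9 to 13 with a lane left out. Between the sexes, 4 calls higher in females and 6 in males became 2 and 2 with DESeq2, 7 and 12 at a limit of 0.05, 2 and 2 with the size criteria, and 3 to 4 and 3 to 4 with a lane left out. Differences of the sex difference between types (0 called by edgeR in the planned fit, where 9 of 10 had no estimate) gave 1 call with 1 shared sex term, chosen after seeing the data. The causes were not tested. Counts in this paragraph that stand without a share of all genes are not read as results about the members. Thinning cells to 4000 UMIs moved 33 of 35 shares beyond their interval, and totals without hormones and globins moved 9 of 35 levels. Between the sexes, no paired analysis was possible because the lanes of each sex were technical replicates of its own pool. The barcodes also do not carry the replicate numbers of the labels. Comparisons of types had sex as a term in the fit.

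T (88 cells) and EC (132 cells) had the fewest cells of the 8 types, and a sex is 1 pool.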

Other observations

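Detection of 2 subunits in the same cell is limited by depth and is given as counts. Of 793 C, 44 (5.55%, 95% exact interval 4.06 to 7.38%) held UMIs of a GABA-A alpha, a beta and another subunit together, and 69 of 1889 S (3.65%) did. *Chrna4* and *Chrnb2* were found together in 18 of 238 G, which is 23.1% of cells with *Chrna4* against 20.2% of all G with *Chrnb2*. *P2rx2* and *P2ry2* were found together in 262 FSC, 55.4% of cells with *P2ry2* against 39.5% of all FSC with *P2rx2*. *P2rx4* and *P2ry6* were found together in 159 Le, 65.7% of cells with *P2rx4* against 58.8% of all Le with *P2ry6*. Deeper cells hold more of both genes of a pair, and the part of depth was not tested.

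Further members with UMIs in the 60 melanotrophs included *Gria2* at 70.4 CPM, *Grik1* at 38.6 CPM and *Grik5* at 27.6 CPM, where the highest levels in the 8 types were 68.3, 31.9 and 24.9 CPM.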
